A study of Mus musculus with 12 samples.

Results

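Immunity-related GTPases are a family of interferon-inducible proteins of mouse cells, and 6 of them (Irgm1, Irgm2, Igtp, Iigp1, Ifi47 and Tgtp1) were followed here by their gene symbols among the 24454 genes measured in MLL-AF9 leukemic blasts. All 6 were found. Of these, 4 had a mean of at least 10 normalized counts over the 12 libraries and were tested together with the 11476 genes that passed this filter, and Iigp1 and Tgtp1 fell below it. The blasts were mouse fetal liver cells transduced with a retrovirus for the MLL-AF9 fusion oncogene and the fluorophore Venus, from wildtype (WT) or STAT3β-deficient (Δβ) donors, the latter lacking the truncated β isoform of the transcription factor STAT3 while the full-length α isoform remains. Recipients were male NSG mice (NOD.Cg-Prkdc scid Il2rg tm1Wjl/SzJ), 6 to 8 weeks old at injection, a strain without T, B and NK cells of its own but with myeloid cells. Venus+ cells were sorted from spleen (SP) or bone marrow (BM) of diseased recipients, and RNA was sequenced in 4 groups of 3 libraries: WT SP, Δβ SP, WT BM and Δβ BM. No drug treatment of these recipients is named in the sources used here, and neither the number of donor embryos nor that of independent transductions is given there, so p-values measure the spread between these libraries.

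The family works in cell-autonomous defense. Under interferon γ, the receptor-bound kinases JAK1 and JAK2 start a signal to the nucleus, where transcription factors such as IRF1 switch on the GTPases and the related guanylate-binding proteins. A regulator branch, with Irgm1, Irgm2 and Igtp (also named Irgm3), sits on membranes of the cell and keeps the effector branch inactive there. The effectors Iigp1 (Irga6), Ifi47 (Irgd) and Tgtp1 (Irgb6) load onto vacuoles of pathogens such as Toxoplasma and break them.

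The start sites of the members are shown first, since 5 of the 6 genes lie in a pair of clusters on chromosome 11 and some of their promoters are closely related. In RefSeq on GRCm38.p6, the build that the submitters' notes also name, Irgm1, Tgtp1 and Ifi47 had their promoter windows at chr11:48871371-48871670, chr11:48992197-48992496 and chr11:49076337-49076636. Igtp and Irgm2 had theirs at chr11:58199306-58199605 and chr11:58214727-58215026. Each window holds 250 bases before and 50 after the start site, and Iigp1 has no window in the table used. Both strands were searched for a GAAA repeat with any 2 bases between its copies, the core of the interferon-stimulated response element (ISRE), which IRF family factors bind, and for TTCNNNGAA, the core of the γ-activated site (GAS), which STAT dimers bind. The stretch around the matches is printed from 5′ to 3′ along the gene, with the matched bases in capitals, for the 4 members with a match and for the related genes Tgtp2 and Gm12250 (Irgb10), which are described further on.
Irgm1: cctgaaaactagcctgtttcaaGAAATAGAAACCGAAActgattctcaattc
Irgm2: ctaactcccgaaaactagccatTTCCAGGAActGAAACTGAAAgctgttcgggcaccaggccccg
Igtp: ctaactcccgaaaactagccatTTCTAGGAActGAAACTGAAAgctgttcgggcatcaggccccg
Tgtp1: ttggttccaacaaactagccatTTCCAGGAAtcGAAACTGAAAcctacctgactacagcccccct
Tgtp2: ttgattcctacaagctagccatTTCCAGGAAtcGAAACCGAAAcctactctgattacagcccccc
Gm12250: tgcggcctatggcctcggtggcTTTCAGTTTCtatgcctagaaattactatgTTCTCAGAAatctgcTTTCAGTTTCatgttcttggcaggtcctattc

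Irgm2, Igtp, Tgtp1 and Tgtp2 shared one arrangement, a GAS followed 2 bases later by the ISRE core. Counted from the first transcribed base as 1, with the base before it as -1, the pair began at -75 in Irgm2, -45 in Igtp, -88 in Tgtp1 and -81 in Tgtp2. Without gaps, 43 of 44 bases around this pair were identical between Igtp and Irgm2, and 33 of 44 between Irgm2 and Tgtp1. Irgm1 carried a pair of overlapping ISRE cores from -30 to -15 and no GAS. With the first of these cores set on that of Irgm2 without gaps, 14 of 44 bases were identical. Its second core was not used for this count, so the value depends on the anchor and does not measure how related the promoters are. Gm12250 had ISRE cores on its opposite strand at -91 and -46 with a GAS between them. Ifi47 held neither motif in its window, which says only that these letters do not occur there. Over all 32851 promoter windows of the table, 3.44% held the ISRE core, 8.30% the GAS, 0.454% both and 0.131% both within 12 bases of each other. A match of letters is a description and not a binding site.

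**Figure D1:**
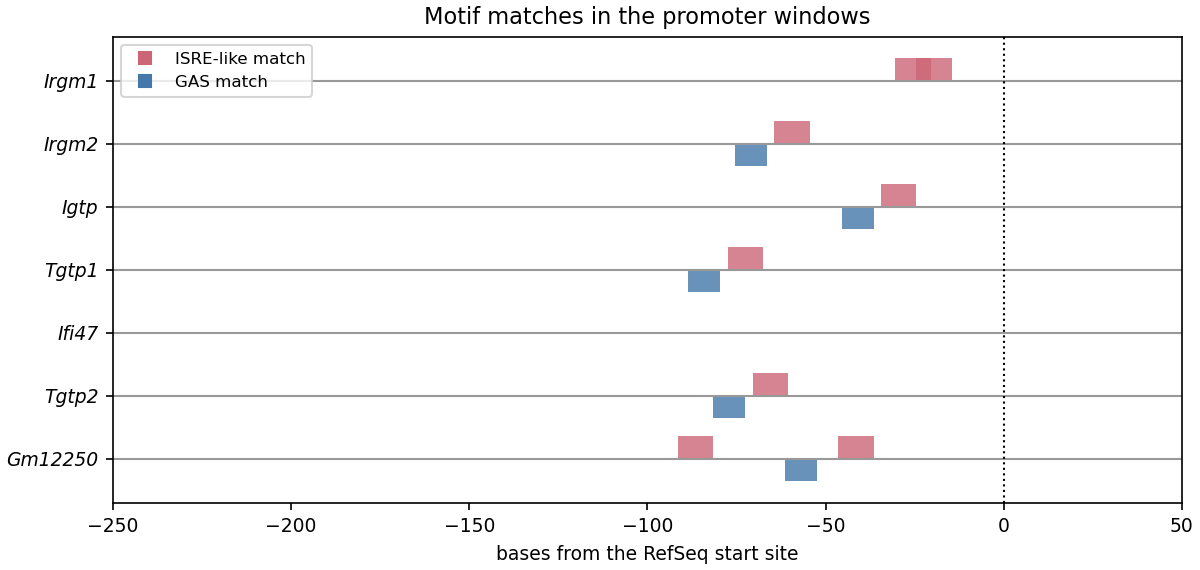
Matches to the ISRE core (red, above the line) and the GAS (blue, below the line) in the promoter windows of 5 members and of Tgtp2 and Gm12250, with the distance in bases from the RefSeq start site on the x axis. Irgm2, Igtp, Tgtp1 and Tgtp2 have the same ordered pair at different distances, Irgm1 has overlapping ISRE cores next to its start site, and the line of Ifi47 is empty.

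The printed stretches were taken from chr11:48871421-48871472 for Irgm1, chr11:58214880-58214944 for Irgm2, chr11:58199489-58199553 for Igtp and chr11:48992292-48992356 for Tgtp1. Those of Tgtp2 and Gm12250 were chr11:49064251-49064315 and chr11:58183730-58183828. Irgm1, Tgtp1 and Tgtp2 lie on the minus strand and the others on the plus strand.

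The 12 libraries held 9001051 to 13859727 reads on genes, and 1 read was worth 0.775 to 1.17 normalized counts, the unit used throughout, which is a gene's read count divided by 1 size factor per library. Reads on the ribosomal RNA gene Rn45s made up 0.725%, 2.48% and 2.41% in the WT SP libraries. In Δβ SP the share was 0.430%, 0.224% and 0.264%, without overlap, and in BM it was 0.178% to 0.655%. The part of this difference in the genotype comparison was not tested. All 14 markers fixed for MLL-AF9 myeloid blasts, among them Hoxa9, Meis1, Mpo and Kit, had at least 3 reads in every library. Stat3 ranged from 2977 to 4430 normalized counts in the WT SP libraries and from 2674 to 3236 in those of Δβ SP, with overlap in both organs, and values per gene cannot tell the isoforms apart. Of the libraries, WT SP replicate 3 stood apart, with a Pearson's r across genes of 0.897 and 0.943 with replicates 1 and 2, which had 0.964 with each other, and the values in the other 3 groups began at 0.929.

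Irgm1, the regulator whose loss in mice is known to impair blood stem cells and autophagy, was measured at 245, 200 and 253 normalized counts in the WT SP libraries and at 754, 888 and 343 in those of Δβ SP, here and in the following always given in the order of the replicates 1, 2 and 3. In BM it had 222, 193 and 114 in WT and 548, 508 and 177 in Δβ. All Δβ SP libraries lay above all WT SP libraries, whereas in BM Δβ replicate 3 lay among the WT libraries. Irgm2, the second regulator, stood at 173, 165 and 104 in spleen blasts of WT against 676, 804 and 266 in those of Δβ. The BM libraries gave 147, 119 and 101 for Irgm2 in WT and 543, 482 and 142 in Δβ, so that only Δβ BM replicate 3 entered the WT range.

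Igtp, the third regulator, stood at 116, 136 and 197 normalized counts for WT spleens and at 502, 805 and 201 for Δβ spleens. It had 137, 117 and 125 in WT BM and 385, 432 and 140 in Δβ BM. The groups of Igtp did not overlap in either organ, but replicate 3 of Δβ cleared the highest WT library only narrowly in both. Ifi47, an effector, gave 113, 103 and 315 (WT) and 626, 708 and 129 (Δβ) normalized counts in SP, followed by 156, 93.5 and 140 (WT) and 570, 457 and 99.4 (Δβ) in BM. Here the groups overlapped in both organs, since Δβ replicate 3 was within the WT range and WT SP replicate 3 was higher than the other WT libraries.

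**Figure D2:**
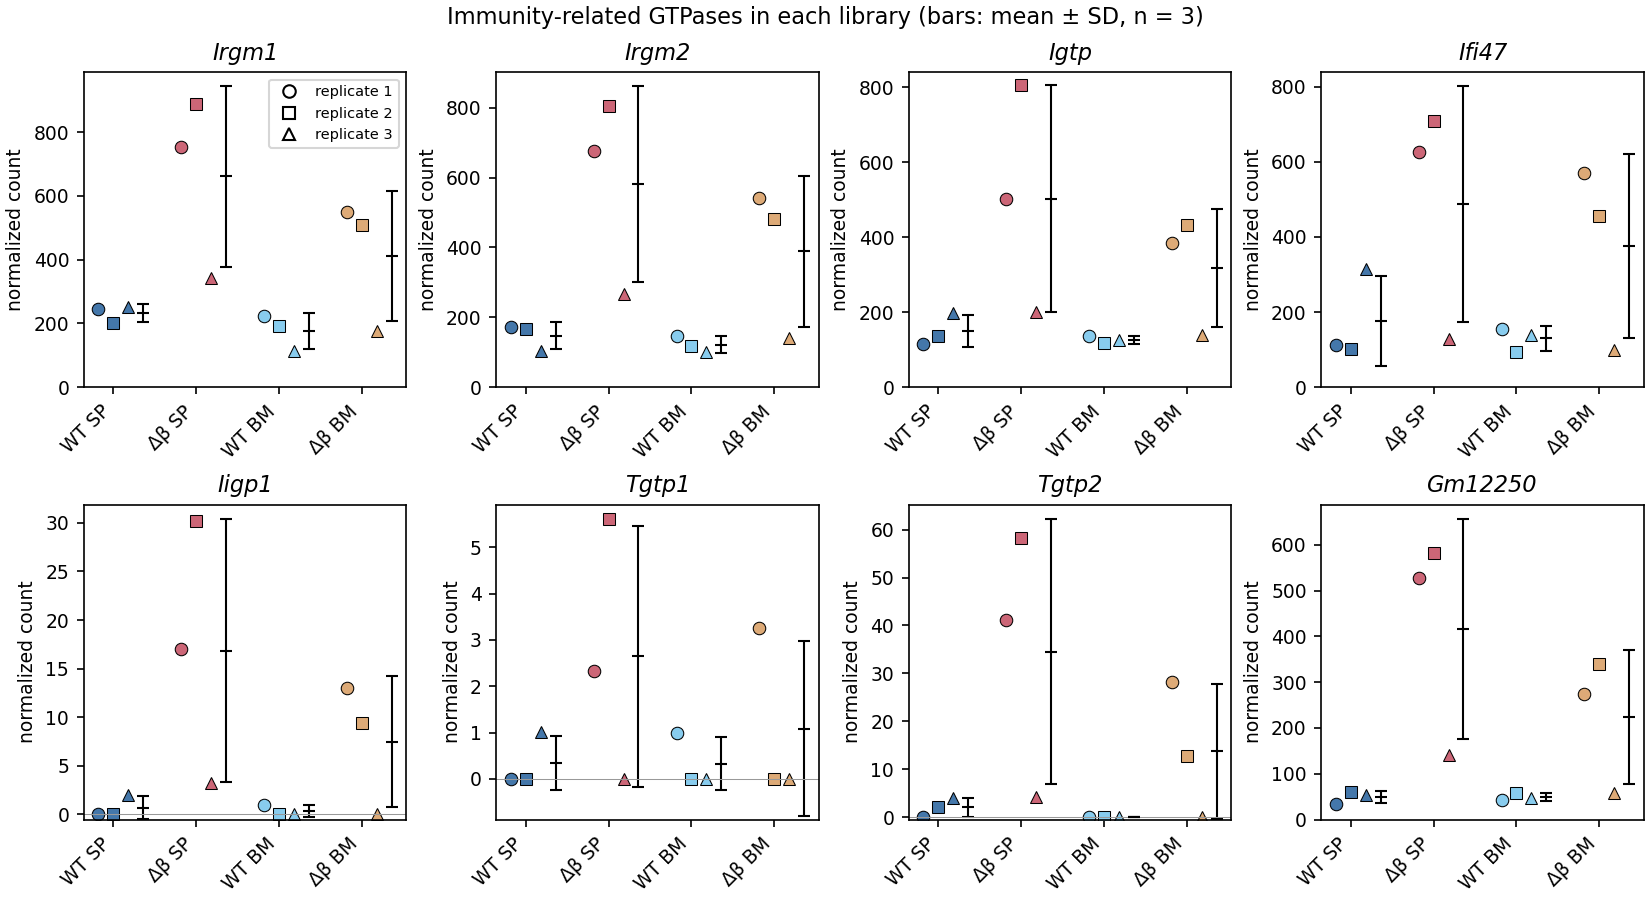
Normalized counts (y axis, linear) of the 6 members and of the family genes Tgtp2 and Gm12250 in each library of the 4 groups, with the symbol giving the replicate number and the bar beside each group its mean ± SD of 3 libraries. Replicates 1 and 2 of Δβ stand above the WT libraries in every panel except Tgtp1, while replicate 3 of Δβ (triangles) is the lowest or joint lowest of its group in every panel.

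Summed over a group, Iigp1, an effector that coats pathogen vacuoles, had 2 reads in WT SP and 52 in Δβ SP. By library these were 0, 0 and 2.03 normalized counts in WT SP and 17.1, 30.2 and 3.20 in Δβ SP. In BM the values were 0.992, 0 and 0 in WT and 13.0, 9.34 and 0 in Δβ, from 1 and 20 reads. The ratio of the summed reads, adjusted for the size factors, was 23.4 in SP (exact 95% interval 6.16 to 198) and 21.1 in BM (3.37 to 873), intervals that cover counting error only. Iigp1 was thus seen almost only in replicates 1 and 2 of Δβ.

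Tgtp1 was close to absent. In SP it gave 0, 0 and 1.01 (WT) and 2.33, 5.60 and 0 (Δβ) normalized counts, and in BM 0.992, 0 and 0 (WT) and 3.26, 0 and 0 (Δβ). With 1 read against 8 in SP, the ratio of 7.20 had an exact 95% interval of 0.965 to 319, and in BM both groups were at or below 3 reads. Values of Tgtp1 are also uncertain by sequence. In the GENCODE M21 transcripts 81.2% of its 50-base stretches occurred in another gene, mostly in its neighbor Tgtp2, and how reads that match both were counted is not given in the sources used here. For Igtp this share was 11.8%, all of it in Irgm2 transcripts, and for Irgm2, Ifi47, Iigp1 and Irgm1 it was 7.77%, 2.54%, 1.69% and 0.310%.

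Per kilobase of exon, which allows levels of different genes to be set side by side, Igtp was the most abundant member, with mean values of 74.0 in WT SP and 249 in Δβ SP. Ifi47 followed with 71.5 and 197, then Irgm2 with 39.9 and 158 and Irgm1 with 40.0 and 114. Neighbors in this order overlapped between libraries in each of the 4 groups. The ends of the order, Igtp and Irgm1, were apart across WT libraries (57.5 to 97.4 against 34.5 to 43.5 in SP). Across Δβ libraries their ranges overlapped (99.3 to 398 against 59.0 to 153 in SP), where the replicates spread widely. Within each of the 12 libraries Igtp was higher than Irgm1. Iigp1 and Tgtp1, at means of 0.116 and 0.106 in WT SP, were far below. In Δβ SP Iigp1 reached 2.89 and Tgtp1 0.824. Exon lengths are unions over all GENCODE M21 transcripts of a gene, between 2.02 kb for Igtp and 5.82 kb for Iigp1, so genes with a long alternative end are set too low.

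The first comparison asked whether the members differ between Δβ and WT blasts. In SP all 4 tested members were higher in Δβ on average, by 1.3 to 1.9 on the log2 scale. Irgm2 had a log2 fold change of 1.86 (SE 0.52, adjusted p = 0.218, limma with Benjamini-Hochberg adjustment over all 11476 genes), Igtp one of 1.56 (SE 0.50, adjusted p = 0.241, limma), Irgm1 one of 1.40 (SE 0.46, adjusted p = 0.241, limma) and Ifi47 one of 1.32 (SE 0.76, adjusted p = 0.417, limma). None passed an adjusted p of 0.05 from limma, whose calls in SP numbered 12 of 11476 genes (0.105%), while 3 of the 4 members had an unadjusted p under 0.05, as did 14.9% of all tested genes. The counts by other tools were 0 of 4 with edgeR and 3 of 4 with DESeq2 (Irgm1, Irgm2 and Igtp, adjusted p = 0.0252, 0.00433 and 0.0171), where DESeq2 called 3.99% of all genes. Without overlap of the groups, 3 of the 4 tested members were higher in Δβ SP, against 7.92% of all tested genes, and Iigp1 did the same below the filter. The median log2 fold change of the 4 tested members was 1.48, beside -0.01 over all tested genes.

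In BM the differences pointed the same way and were smaller. Irgm2 had a log2 fold change of 1.46 (SE 0.52), Ifi47 one of 1.22 (SE 0.76), Igtp one of 1.17 (SE 0.50) and Irgm1 one of 1.11 (SE 0.46), each with an adjusted p near 1 from limma. By limma 0 of 4 members passed, beside 0.0697% of all genes, with 3 of 4 at an unadjusted p under 0.05, beside 2.59%. Both edgeR and DESeq2 called 0 of 4 in BM, and DESeq2 called 0.323% of all genes. Only Igtp was higher without overlap, 1 of 4 tested members against 3.50% of tested genes, and Igtp was also the 1 member without overlap in both organs, against 0.863%. The median over the 4 members was 1.20, beside -0.02 over all tested genes.

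For both organs together, each Δβ or WT number entered once, as the mean log2 value of its SP and BM library, so that 3 values stood against 3. The log2 fold change was 1.66 for Irgm2 (SE 0.45, adjusted p = 0.324), 1.37 for Igtp (SE 0.44, adjusted p = 0.399), 1.27 for Ifi47 (SE 0.65, adjusted p = 0.556) and 1.25 for Irgm1 (SE 0.38, adjusted p = 0.377), all from limma. Again 0 of 4 passed, beside 0.148% of all genes, with 3 of 4 at an unadjusted p under 0.05, beside 9.91%. Here edgeR called 0 of 4, and DESeq2 called Irgm1, Irgm2 and Igtp (adjusted p = 0.00389, 0.000559 and 0.00737) and 3.68% of all genes. Of the 12 pairs of a member and an organ, the 2 low members included, all 12 had the higher group mean in Δβ. These pairs are not separate observations, since they share libraries and the members varied together. Tgtp1 in BM rested on 1 read against 3. Of all 11476 tested genes 5521 had a log2 fold change over 0 in SP and 5199 in BM.

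**Figure D3:**
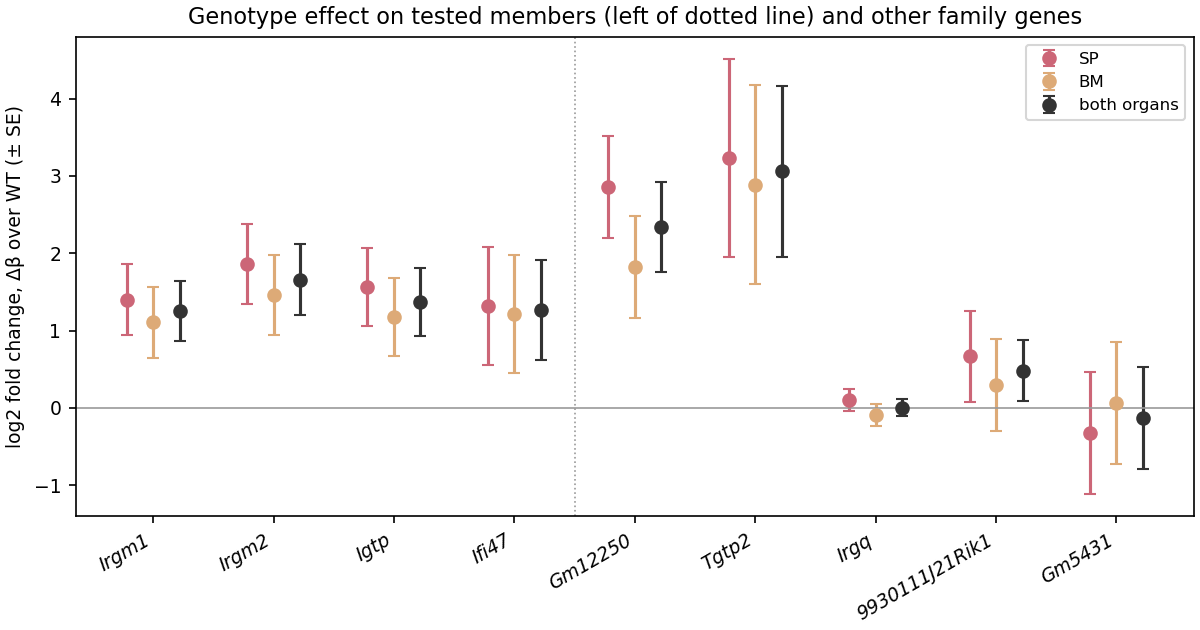
Log2 fold change of Δβ over WT (y axis, points, with bars of ± 1 SE from limma) in SP, in BM and over both organs, for the 4 tested members left of the dotted line and 5 other tested family genes right of it. The 4 members lie between 1.1 and 1.9, Gm12250 and Tgtp2 higher, and Irgq at 0.

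Replicates 1 and 2 of Δβ carried these differences. On the mean log2 deviation of the 4 tested members from their 12-library means, replicates 1 and 2 of Δβ were at 1.38 and 1.72 in SP and at 1.06 and 0.95 in BM. Replicate 3 of Δβ was at -0.13 in SP and -0.82 in BM, within or close to the range of the 6 WT libraries, -1.02 to -0.27. The low Δβ library thus had the same number in both organs. Across all tested genes, Δβ SP and Δβ BM libraries of the same number deviated together from their group means (Pearson's r 0.608 to 0.664 for the 3 pairs, -0.32 on average for the other pairs), which WT libraries did not (-0.24 to -0.01). Whether a number stands for one recipient is not given in the labels.

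Without the SP and BM library of Δβ numbered 3, a choice made after their values were seen, limma called Irgm1, Irgm2 and Igtp in SP, 3 of 4 beside 0.200% of all genes. Their log2 fold changes were then 1.82, 2.35 and 2.12 (adjusted p = 0.0439, 0.00886 and 0.0189, limma). In BM it called 1 of 4, Irgm2 (log2 fold change 2.07, adjusted p = 0.0242, limma), beside 0.227%. Over both organs it called Irgm1, Irgm2 and Igtp, 3 of 4 beside 0.235%, with log2 fold changes of 1.72, 2.21 and 1.90 (adjusted p = 0.0282, 0.0282 and 0.0334, limma). Ifi47 was called in none of these fits.

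**Figure D4:**
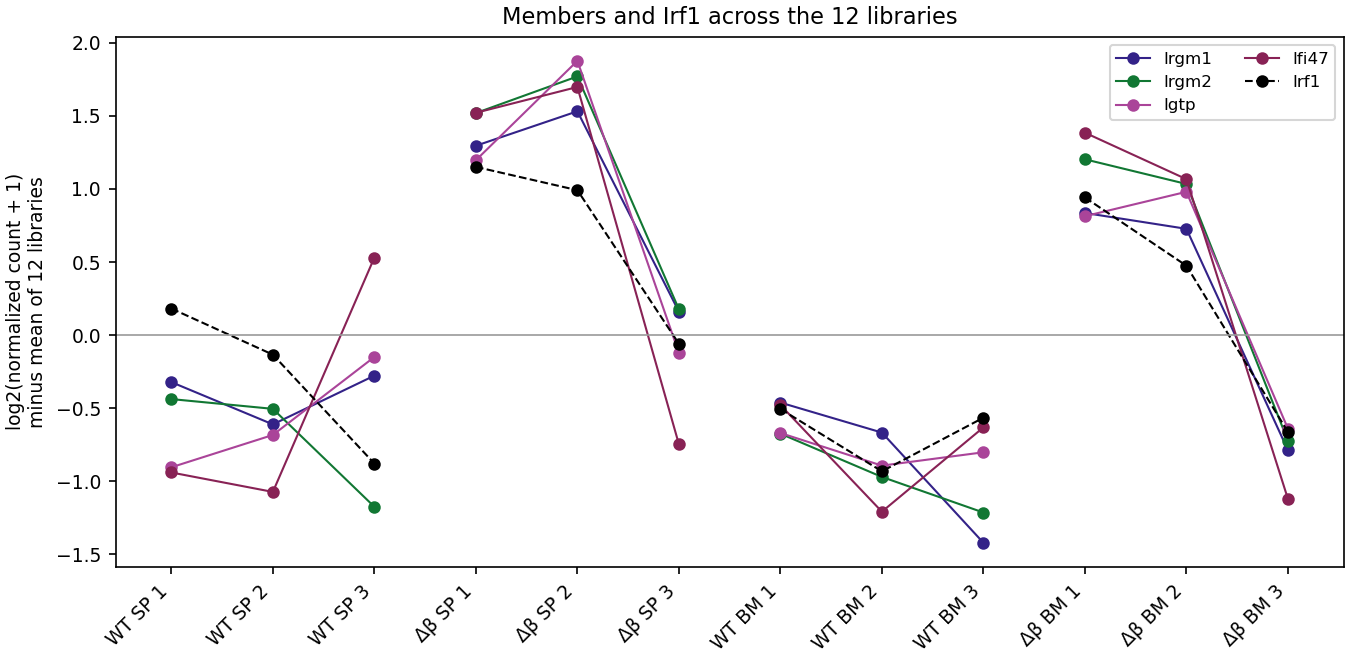
Log2 of the normalized count plus 1 minus its mean over the 12 libraries (y axis) for the 4 tested members (solid lines) and for Irf1 (dashed line), with 1 point per library and lines joining the replicates of a group only to guide the eye. Replicates 1 and 2 of Δβ are high in both organs for all 5 genes, replicate 3 of Δβ is near the WT libraries, and Ifi47 parts from Irgm2 in WT SP replicate 3.

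Since these are bulk samples, fewer cells of a type and less RNA per cell cannot be told apart, and marker lists of other cell types were summed in each library. Macrophages, which are rich in these GTPases under interferon, have 10 listed markers, of which 3 or 4 reached 3 reads in every library of a group. C1qc and Marco were at 0 in all Δβ SP libraries, Timd4 in both BM groups and Cd5l in WT BM. In SP the macrophage sums lay between 3801 and 5693 normalized counts (WT) and between 3479 and 5093 (Δβ). In BM they lay between 6479 and 8964 (WT) and, without overlap, between 4689 and 5905 (Δβ). Neutrophil markers, 8 of 8 present in every library and none at 0, summed to at least 135514 in the WT SP libraries and to at most 110108 in those of Δβ SP, and overlapped in BM (135821 to 387867 for WT, 106730 to 223303 for Δβ). Endothelial or stromal markers reached at most 1201 in WT SP and at least 1405 in Δβ SP, with 1 or 2 of 7 markers at 3 reads or more in every library and Lepr at 0 in both groups. The part of macrophage, neutrophil and stromal markers in the differences between the genotypes was not tested. Markers of T or NK cells, of which 1 or 2 of 7 reached 3 reads in every library of a group, varied widely. They summed to 851 in WT SP replicate 3, where Ifi47 was high, and to 28.5 and 86.9 in the other WT SP libraries. Their sums were 96.9 to 371 in WT BM, 152 to 321 in Δβ SP and 140 to 566 in Δβ BM, each highest in replicate 1. The part of these markers in the Ifi47 value was not tested.

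The second comparison was between the organs. In WT blasts the members were 0.21 to 0.45 higher in SP than in BM on the log2 scale, and in Δβ blasts 0.38 to 0.74 higher, with the largest value in both cases for Irgm1. In the organ contrasts 0 of 4 members passed, and 0 genes of all tested did (0%) by limma, with 0 of 4 at an unadjusted p under 0.05 and 0 of 4 called by edgeR or DESeq2. Taking Δβ libraries of the same number as pairs, each of the 4 members was higher in SP in 3 of 3 pairs, as were 15.7% of all tested genes, and a block for the number changed no call.

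Whether the genotype effect differed between SP and BM was tested as an interaction. The effect in SP exceeded that in BM by 0.40 for Irgm2 (SE 0.73), 0.39 for Igtp (SE 0.71), 0.29 for Irgm1 (SE 0.65) and 0.10 for Ifi47 (SE 1.08), each smaller than its standard error. The adjusted p of limma was 0.945 to 0.991, and by limma, edgeR or DESeq2 0 of 4 members passed, with 0 of 4 at an unadjusted p under 0.05 in limma and in edgeR. The limma fit took the 12 libraries as separate units, without pairing the Δβ libraries of the same number. With a block for the number, 0 of 4 members passed as well. Differences of the size seen between the organs were not resolved by these fits with 3 libraries per group.

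Among themselves the 4 tested members varied together over all 12 libraries, but not every pair did so within the lower ones. Over the 12 libraries Pearson's r between members was 0.82 to 0.96, but the libraries formed a high set, replicates 1 and 2 of Δβ in both organs, and a low set of 8, so that the pooled value mostly restates this split. Within the 8 lower libraries r was 0.71 between Irgm1 and Irgm2, 0.64 between Igtp and Ifi47 and 0.30 between Irgm2 and Igtp. For Irgm2 and Ifi47 it was -0.36. The values of 0.30 and -0.36 lean on WT SP replicate 3. Its log2 deviations from the 12-library mean were -1.18 for Irgm2, -0.15 for Igtp and 0.53 for Ifi47. Over the 12 libraries, deviations from the group means had an r of 0.73 to 0.95 between members, with Δβ replicate 3 again apart from replicates 1 and 2. WT SP replicate 3 held the highest WT value of Ifi47, Igtp and, narrowly, Irgm1 (253, next 245), and the lowest WT SP value of Irgm2. These correlations are given as a description, with no test.

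Among the genes with the most similar pattern to the mean of the 4 members over the 12 libraries were Gbp2b (r = 0.984, rho 0.921), Gbp7 (r = 0.981, rho 0.958), Tap1 (r = 0.974, rho 0.916) and Psmb9 (r = 0.970, rho 0.923). Tap1 encodes a peptide transporter of antigen presentation and Psmb9 an immunoproteasome subunit. Within the 8 lower libraries these r were 0.821, 0.899, 0.862 and 0.878, where the value of Gbp2b rests on 0 to 2 reads per library. By member, Gbp4, Eif2ak2 and H2-K1 were most like Irgm1 (r 0.956 to 0.973), Gbp4, Gbp2b and Gm12250 most like Irgm2 (0.955 to 0.958), and the closest also held Psmb9 and Gbp7 for Igtp (0.982 and 0.971) and Gbp7 and Gbp6 for Ifi47 (0.952 and 0.937). Within the 8 lower libraries these were 0.779 to 0.937 for Irgm1, 0.569 to 0.761 for Irgm2, 0.922 and 0.861 for Igtp and 0.720 and 0.699 for Ifi47. Gbp2b, Gbp4 and Gbp6 passed the filter only through the Δβ libraries (WT means 0.359, 2.29 and 4.43). A pattern high in Δβ was thus required of these genes, and their r is a description only.

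Other genes of the same family were present under 11 of 12 listed symbols, of which 5 were tested. Gm12250, an effector that helps break open bacteria, stood at 34.2, 59.4 and 52.8 normalized counts for WT spleens and at 527, 581 and 140 for Δβ spleens. In BM it had 42.7, 58.6 and 47.3 in WT and 275, 339 and 58.0 in Δβ, where 1 WT library lay above Δβ replicate 3. Its log2 fold change was larger than that of the 4 tested members, 2.86 in SP (SE 0.66, adjusted p = 0.168, limma) and 1.82 in BM (SE 0.66, adjusted p near 1, limma). Without WT SP replicate 3 limma called it in SP (log2 fold change 2.93, adjusted p = 0.0299), in a fit that called 16.4% of all genes. Without both Δβ libraries numbered 3 limma called it in SP (log2 fold change 3.51, adjusted p = 0.00183), beside 0.200% of all genes. In BM limma then called it too (log2 fold change 2.61, adjusted p = 0.00803), beside 0.227%. These libraries were left out after their values were seen and held the lowest Δβ values of Gm12250, so both calls are a description only. With every library kept, DESeq2 called Gm12250 in SP (adjusted p = 9.82e-05). For BM the DESeq2 value was 0.0806 after adjustment, which is above the threshold.

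Tgtp2, the near copy of Tgtp1, gave 0, 2.12 and 4.06 (WT) and 41.1, 58.2 and 4.27 (Δβ) normalized counts in SP. All WT BM libraries were at 0, and Δβ BM had 28.3, 12.8 and 0. The Δβ BM mean was at least 13.0-fold higher than the level of 3 reads summed over the WT BM group. Tgtp2 reached the minimum mean of 10 only through the Δβ libraries (mean of the 6 WT libraries 1.03), so its log2 fold change of 3.23 in SP (SE 1.28) had to be large and is given as a description. Irgq, a family member without GTPase activity, had a log2 fold change of 0.01 over both organs (SE 0.10), the smallest of the tested family genes. 9930111J21Rik1 and Gm5431 had 0.48 (SE 0.40) and -0.13 (SE 0.67). Among the untested rows, Gm12185 reached at most 8.48 normalized counts in WT and 21.3 in Δβ, and Irgc1, which is known from testis, 38.7 in WT and 6.41 in Δβ. Gm4951, F830016B08Rik and Gm4841 had 0 in all 6 WT libraries and at most 12.3 in Δβ, and 9930111J21Rik2 ranged from 2.07 to 8.18 over all 12.

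**Figure D5:**
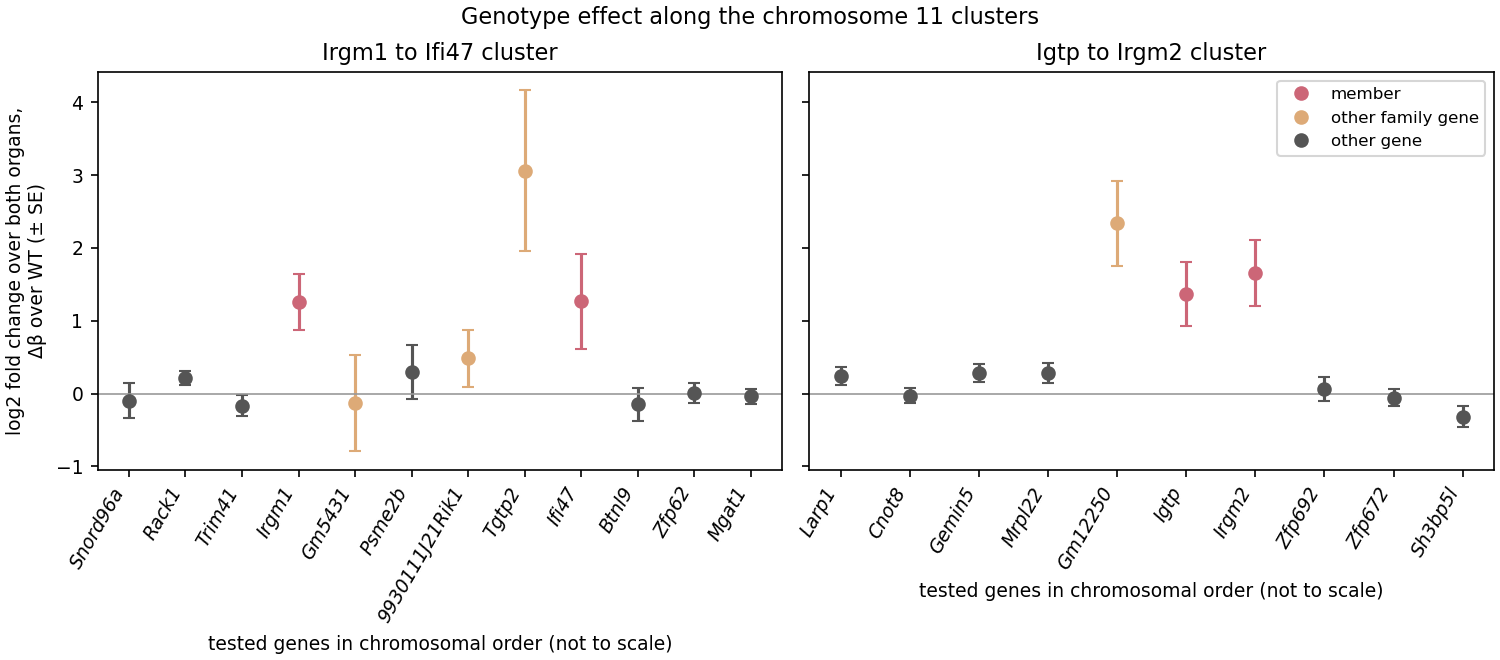
Log2 fold change of Δβ over WT over both organs (y axis, points, with bars of ± 1 SE from limma) for the tested genes within 250 kb of the Irgm1 to Ifi47 cluster and of the Igtp to Irgm2 cluster, in chromosomal order and not to scale. The 14 genes of other families lie between -0.32 and 0.30, the 4 members and Gm12250 and Tgtp2 lie above 1, and the family genes Gm5431 and 9930111J21Rik1 lie at -0.13 and 0.48.

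Neighbors of other families on the chromosome had smaller differences. Within 250 kb of the clusters 14 tested genes belong to no immunity-related GTPase family, among them Rack1, a ribosome-associated scaffold, and Mgat1, an enzyme of N-glycan synthesis. Over both organs their log2 fold changes ranged from -0.32 for Sh3bp5l to 0.30 for Psme2b, and 0 of 14 had an unadjusted p under 0.05 in limma. The 4 members in between were at 1.25 to 1.66. Stat3 lies on the same chromosome, 42.7 Mb from Igtp and 52.0 Mb from Irgm1.

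The genes of the interferon γ route were described by a list of 15, of which 14 were tested. By limma and by edgeR 0 of 14 passed in any genotype contrast. Over both organs 4 of 14 had an unadjusted p under 0.05 in limma, beside 9.91% of all tested genes. DESeq2 called 4 over both organs, beside 3.68% of all genes, among them Irf1 and Nlrc5 as higher and Socs3 as lower. Upstream, the ligand gene Ifng was too low to test. It had 1 read in 1 of the 6 WT libraries, 4 and 3 reads in Δβ SP replicates 1 and 3, 10 reads in Δβ BM replicate 1 (10.9 normalized counts) and 0 in the other Δβ libraries. The receptor gene Ifngr1 had a log2 fold change of -0.56 in SP (SE 0.21), where the groups did not overlap, and of 0.01 in BM. Ifngr2 had -0.17 and -0.14. The kinase gene Jak1 had -0.43 in SP (SE 0.16), again without overlap, and 0.10 in BM, and Jak2 had -0.41 and 0.10. Downstream, Irf1 had 0.95 (SE 0.36, adjusted p = 0.464, limma) and Nlrc5, the transactivator of MHC class I genes, 3.54 (SE 0.86, adjusted p = 0.277, limma). Socs1, a feedback inhibitor, had 0.36 (SE 0.29) and the myeloid factor Irf8 0.37 (SE 0.29). Socs3, which STAT3 induces and which restrains cytokine receptors, had -0.91 (SE 0.36), composed of -2.69 in SP and 0.87 in BM. The list as a whole had 7 genes higher and 7 lower in SP and 11 higher and 3 lower in BM, with medians of -0.05 and 0.08.

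Irf1 gave 1223, 982 and 586 (WT) and 2396, 2145 and 1034 (Δβ) normalized counts in SP, followed by 759, 564 and 728 (WT) and 2072, 1499 and 681 (Δβ) in BM. Here, too, replicate 3 of Δβ had the lowest value of its group.

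Of 12 genes listed for type I interferon, 7 were tested, 5 were higher and 2 lower in each organ. By limma, edgeR and DESeq2 0 of 7 passed, and 0 of 7 had an unadjusted p under 0.05 in limma. Over both organs Stat2 had a log2 fold change of 0.25 (SE 0.12), Irf9 0.57 (SE 0.32), Irf7 0.50 (SE 0.47) and Usp18, an interferon-induced deconjugase of ISG15, 0.98 (SE 0.56). The receptor genes Ifnar1 and Ifnar2 had -0.04 (SE 0.18) and 0.07 (SE 0.18), and the receptor kinase Tyk2 -0.08 (SE 0.12).

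Guanylate-binding proteins, the interferon-induced GTPases that act with the members at pathogen vacuoles, were tested for 8 genes of 11 listed. Of these, 3 (Gbp2b, Gbp4 and Gbp6) reached the minimum mean of 10 only through the Δβ libraries, with means of 0.359, 2.29 and 4.43 over the 6 WT libraries, so that counts over the list say nothing of its direction. By limma and by edgeR 0 of 8 passed in SP, BM or both organs. An unadjusted p under 0.05 in limma was reached by 7, 4 and 7, beside 14.9%, 2.59% and 9.91% of all tested genes. DESeq2 called 7, 3 and 7, beside 3.99%, 0.323% and 3.68% of all genes. Gbp2 had a log2 fold change of 4.80 over both organs (SE 1.14, adjusted p = 0.261, limma). Gbp7, the other named gene of this family with a WT mean over 10, had 1.72 (SE 0.63).

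Genes of the LC3 conjugation machinery, which the regulator GTPases meet on membranes, and of the ubiquitin machinery at vacuoles had mostly lower means in Δβ SP. Of all 11476 tested genes 5955 were lower in SP and 6277 in BM. Of 16 conjugation genes 1 was higher and 15 lower in SP and 7 higher and 9 lower in BM, with medians of -0.20 and -0.01. By limma, edgeR and DESeq2 0 of 16 passed. In SP 5 had an unadjusted p under 0.05 in limma, all of them lower. Of all tested genes 14.9% had such a p in SP, with 1028 of 11476 genes lower. Map1lc3a had a log2 fold change of -0.39 (SE 0.30) over both organs, Map1lc3b -0.35 (SE 0.19) and Ulk1 -0.30 (SE 0.17). Of 6 vacuole ubiquitin genes 1 was higher and 5 lower in SP and 2 higher and 4 lower in BM, with medians of -0.33 and -0.01. Here limma and edgeR called 0 of 6, with 3 at an unadjusted p under 0.05 in SP in limma, beside the same 14.9%. DESeq2 called 1, Trim21 in SP, beside 3.99% of all genes. Over both organs the ubiquitin receptors Sqstm1 and Optn had -0.43 (SE 0.16) and -0.69 (SE 0.33), and the ubiquitin ligase Trim21, itself induced by interferon, had 0.41 (SE 0.17, adjusted p = 0.487, limma).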

How the data were processed

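RNA of Venus+ blasts was sequenced from poly-A enriched libraries of 12 samples, which the titles assign to a genotype, an organ and a replicate number. The values deposited by the authors are a signal, namely counts scaled with a single size factor for each library. Per the labels, the processing used FastQC, STAR, featureCounts and DESeq2 with GRCm38 (mm10), with versions and settings not given in the sources used here. In every library 100% of the values were whole multiples, within 0.01 reads, of the smallest nonzero value, which gave the whole reads. The table holds 6 further columns of values that match no sample label, and these were not used. No pair of replicates agreed within counting noise (chi-square per degree of freedom 24.8 to 160).

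The members, gene lists and named genes were chosen with earlier results of these data known. The named genes are the 6 members, all listed family rows, Stat3, 12 core interferon pathway genes, up to 3 others per list with the largest fold change over both organs, and the genes most similar to the members.

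Genes were tested with limma 3.58.1 (lmFit, eBayes with trend) in R 4.3.3 on log2(normalized count + 1), for the 11476 of 24454 genes whose average across the 12 libraries reached 10, in a model of 4 group means. Benjamini-Hochberg adjustment ran over all tested genes, and an adjusted p under 0.05 counted as passing. A fold change on this scale understates that of low genes. For single values, the smallest two-sided p of an exact permutation test is 0.1 with 3 libraries in each group. edgeR 4.0.16 (quasi-likelihood) and DESeq2 1.42.0 on the recovered reads were alternatives, and DESeq2 left an adjusted p missing for some genes, which were left out of its percentages. The procedure was tested on simulated data with 200 of 11476 genes changed by 2 on the log2 scale. In SP, BM and over both organs, limma recovered 179, 183 and 190 of them, with 0, 13 and 8 false calls. DESeq2 recovered 193, 191 and 197, with 25, 54 and 56 false calls. In the interaction and the organ contrasts, where nothing was changed, limma and edgeR made 0 calls and DESeq2 15, 20 (WT) and 12 (Δβ). Other alternatives were pseudocounts of 0.25 and 4, no filter, a minimum mean of 50, TMM scaling, eBayes without trend, the libraries compared alone, a block for the replicate number, and each library, or over both organs each number of a genotype, left out in turn.

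Numbers were checked for pairing by the correlation of deviations from the group means over all tested genes. Every same-numbered Δβ SP and Δβ BM pair exceeded 0.1, and no other pair of groups did so for all 3 numbers. Promoters are from RefSeq (GRCm38.p6) by symbol, with 5 of 6 members matched, and exon lengths and 50-base stretches from GENCODE M21. Intervals and the floor of 3 reads cover counting error only. One gene of the interferon pathway list is not reported here.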

Additional observations from a re-analysis of the deposited data

How the results depend on the processing

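The number of members past an adjusted p of 0.05 was 0 in all 6 contrasts under pseudocounts of 0.25 and 4, no filter, a minimum mean of 50, TMM, eBayes without trend, edgeR and the replicate block. It was 3 in SP and 3 over both organs with DESeq2, and 3 in SP, 1 in BM and 3 over both organs without both Δβ libraries numbered 3. With single libraries left out it stayed at 0 in SP and BM. Over both organs a replicate number of a genotype was left out with its SP and BM library, and it ranged from 0 to 3, the 3 being the fit without the Δβ libraries numbered 3. With single libraries left out, 11 to 12 of the 12 pairs of a member and an organ had the higher mean in Δβ. Named genes kept their direction and side of the threshold in most other fits. All 40 gains of a call outside the leave-one-out fits came with DESeq2 or without both Δβ libraries numbered 3. Reversals outside the leave-one-out fits were near 0 or small. Over both organs Gm5431 went from -0.13 to 0.00436 with edgeR. Without both Δβ libraries numbered 3, Gm5431 was 0.459 over both organs, Irgq -0.0457 and Ifnar1 0.00906. The Ifi47 interaction was -0.0488 with edgeR and -0.0458 with DESeq2. The causes were not tested.

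With single numbers of a genotype left out, log2 fold changes over both organs ranged from -0.641 to 0.459 for Gm5431, -0.0457 to 0.0389 for Irgq, -0.453 to 0.0847 for Ifngr2, -0.225 to 0.115 for Ifnar1, -0.0895 to 0.213 for Ifnar2 and -0.195 to 0.00441 for Tyk2. With single libraries left out, the interactions ranged from -0.232 to 0.709 for Irgm1, -0.210 to 0.893 for Irgm2, -0.123 to 0.943 for Igtp and -0.681 to 0.887 for Ifi47. SP minus BM ranged from -0.00553 to 0.372 for Igtp and -0.234 to 0.568 for Ifi47 in WT, and from -0.402 to 1.17 for Ifi47 in Δβ.

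Over all genes, limma's 12 calls in SP became 1 with a pseudocount of 0.25, 5 without filter, 2 with a minimum mean of 50, 3 with TMM or without trend, 4 with edgeR, 457 with DESeq2, 2 on the 6 libraries alone and 1884 without WT SP replicate 3. With single libraries left out they ranged from 1 to 1884. The 8 in BM became 37 with DESeq2, 5 without trend, 3 on the 6 libraries alone and 1 to 13 with single libraries left out, and the 17 over both organs 422 with DESeq2, 48 with 12 libraries as separate units, 11 without trend and 2 to 27 with single numbers left out. Calls in the interaction and the organ contrasts were 0, against 3, 111 (WT) and 2 (Δβ) with DESeq2 and 598 in WT without WT SP replicate 3. Numbers of WT and Δβ libraries did not pair (same-number r in SP -0.17 to 0.20), and the replicate block gave 1, 1 and 55 calls in SP, BM and over both organs and no member. Depth limits Iigp1 and Tgtp1 most.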
